A study of Mus musculus with 18 samples.

Results

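The activin, inhibin and follistatin system was followed in mouse cumulus cells, the granulosa cells that surround the oocyte, across 18 Affymetrix arrays. It was defined as the probe sets annotated with exactly 1 gene symbol that is one of Inha, Inhba, Inhbb, Fst, Fstl3, Acvr1b, Acvr2a, Acvr2b and Tgfbr3. This gave 17 of the 45101 probe sets on the array, for 9 of 18193 genes. The cells came from antral follicles of female mice, and the labels give no strain and no age. There were 6 groups of 3 arrays, named by the sample titles. Cocultures were cumulus shells whose oocyte had been removed (OOX) and that were cultured together with oocytes, with estrogen (E2) or without it. Oocyte-free complexes were such shells cultured alone, with or without estrogen, and intact complexes (COC) were cultured with their own oocyte, with or without estrogen. All 6 groups were cultured, so none shows uncultured cells, and neither the estrogen dose nor the culture time is given in the labels. The titles gave each array its group, but 1 array, replicate 1 of the oocyte-free group with estrogen, is described by its source name and treatment label as cultured without estrogen.

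Inhibins and activins are dimers of the TGF-beta family that share their beta subunits. Inha encodes the alpha subunit, which pairs with a beta subunit to form inhibin, while Inhba and Inhbb encode the beta A and beta B subunits, whose dimers are the activins. Activin binds the type II receptors encoded by Acvr2a and Acvr2b, which recruit the type I receptor encoded by Acvr1b, and the complex phosphorylates SMAD2 and SMAD3. Inhibin opposes activin at the type II receptors with the help of betaglycan, the co-receptor encoded by Tgfbr3, and follistatin (Fst) and follistatin-like 3 (Fstl3) bind and neutralise activin outside the cell. Granulosa cells are the main ovarian source of these hormones, which regulate the release of follicle-stimulating hormone by the pituitary.

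Values are log2 expression values made by the authors with RMA, so a difference of 1 is 2-fold. Array medians lay between 5.51 and 5.71, and 25355 probe sets that exceeded the median of their array on at least 3 of the 18 arrays entered the test. Of the 17 probe sets of the system, 12 entered it, at least 1 for each of the 9 genes. A difference is called where the adjusted p of limma (Benjamini-Hochberg over all 25355 probe sets) is under 0.05, and rose or fell is written of called differences. Fstl3 passed on only 8 arrays, 6 of them from the 2 groups with oocytes and without estrogen, so a difference of that gene was partly built into the filter. Whether the replicates are separate animals or cultures is not stated, so the p-values rest on the variation among the samples at hand, part or all of which may be technical. In bulk RNA, fewer cells of a type and less RNA per cell cannot be told apart.

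The median SD of a probe set within a group was 0.185 in cocultures with estrogen and 0.215 without, 0.239 in oocyte-free complexes with estrogen and 0.282 without, and 0.161 in intact complexes with estrogen and 0.176 without. Oocyte-free replicate 3 without estrogen had the narrowest spread of values, its interquartile range being 2.54 where the remaining arrays had 2.70 to 3.06. The names of the arrays fall into 3 series, and none of the 3 arrays of oocyte-free complexes without estrogen was in series 1, which held all the intact complexes. No series therefore held both groups of the comparison of oocyte removal without estrogen. Of 11 oocyte markers, 7 were too dim to be tested, among them Zp2, Zp3 and Ddx4. On oocyte removal 1, Bcl2l10, fell, with changes of -3.91 without and -4.37 with estrogen. The other 3, Gdf9, Ooep and Dppa3, were not called, at 0.07, 0.17 and 0.05 without estrogen and -0.01, -0.49 and 0.19 with it. The mean log2 value of the 11 markers was 4.76 to 5.26 in oocyte-free against 5.10 to 5.29 in intact complexes without estrogen. With estrogen it was 4.65 to 4.76 against 5.09 to 5.17. These means include Bcl2l10, and the mean of the others was not computed. The 10 cumulus markers averaged 8.21 to 8.46 in oocyte-free against 8.96 to 9.09 in intact complexes without estrogen, and 8.96 to 9.31 against 9.47 to 9.58 with it. Of these 10, all tested, 3 rose and 5 fell without estrogen, and 1 rose and 4 fell with it. Over all tested probe sets, 33.0% and 25.3% were called. Without estrogen Slc38a3 and Kctd14 changed by -2.50 and -2.20, while Foxl2, Amhr2 and Wt1 rose by 1.03, 0.57 and 0.52. With estrogen Fshr changed most, by -2.02, and Wt1 rose by 1.96. The 8 theca and stroma genes averaged 6.46 to 6.73 against 6.50 to 6.59 without estrogen, and 6.54 to 6.70 against 5.67 to 5.80 with it. Single genes of that list moved both ways: without estrogen Dcn rose by 4.48 (22.3-fold) while Acta2, Gli1 and Ptch1 changed by -1.91, -1.68 and -1.22, and with estrogen Dcn, Acta2 and Ptch1 rose by 3.39, 2.98 and 1.02 (all called, of 5 tested). The 6 mural granulosa markers averaged 6.70 to 6.95 against 6.77 to 7.16 without estrogen, and 6.87 to 7.05 against 7.14 to 7.24 with it. Here too the changes ran both ways: Kitl rose by 4.59 without and 3.10 with estrogen, Hsd17b1 changed by -4.24 and -3.70, Nppc by -1.91 without and Cyp11a1 by -0.87 with estrogen (all called, of 5 tested). Of 7 endothelial and blood cell markers with a probe set, 1 was bright enough to be tested and was called in no comparison. The part of these marker shifts in the results below was not tested.

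The first question was what cumulus cells do with this system once the oocyte is gone. Without estrogen, the beta B subunit gene Inhbb and the follistatin gene Fst fell most, the alpha subunit gene Inha fell about as much as the Fstl3 gene, and Inhba fell least. Among the receptors, Acvr2b and the betaglycan gene Tgfbr3 rose. Of the 12 tested probe sets, 3 rose, 7 fell and 2 were not called, where 33.0% of all tested probe sets were called (15.4% of all tested higher and 17.6% lower). Among the 7 was Fstl3, whose difference was partly built into the filter. The median change of the 12 was -0.60, against 0.02 over all tested probe sets. With estrogen, 3 rose, 5 fell and 4 were not called, against a background of 25.3% called, 12.1% higher and 13.2% lower, and the medians were -0.40 and -0.01. Over the 9 genes, the groups did not overlap for 6 without estrogen and for 8 with estrogen, while 41.6% of all tested probe sets did not overlap in each of these comparisons. Without the oocyte-free replicate 3, 9 of the 12 were called without estrogen and 9 with estrogen.

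Inhbb (probe set 1426858_at) stood at 4.87, 5.76 and 6.35 in oocyte-free complexes without estrogen, against 10.52, 10.47 and 10.01 in intact complexes without it. It stood at 6.16, 6.60 and 6.29 in oocyte-free complexes with estrogen, against 12.57, 12.72 and 12.79 in intact complexes with estrogen. The 6 oocyte-free arrays lay near the median of their arrays, and the 6 intact arrays lay far above it with no overlap. The change was -4.67 ± 0.331 without estrogen (SE, n = 3 per group; 25.5-fold; limma adjusted p = 3.42e-08) and -6.34 ± 0.331 with estrogen (81.2-fold; adjusted p = 1.78e-09). RMA compresses dim values, so these folds can be understated. They are also those of 1 probe set, and the second gave smaller differences. That one, 1426859_at, averaged 7.09 in oocyte-free against 7.76 in intact complexes without estrogen, and 6.88 against 9.72 with it. Within array series 1, oocyte removal with estrogen changed the first probe set by -6.31 (2 against 3 arrays).

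Fst (1421365_at) stood at 10.08, 9.43 and 9.14 in oocyte-free complexes without estrogen, against 12.71, 12.92 and 12.95 in intact ones. With estrogen the values were 11.11, 10.51 and 10.56 in oocyte-free and 13.12, 13.05 and 13.25 in intact complexes. Follistatin transcripts thus remained well above the array median in every oocyte-free array and still did not overlap those of intact complexes. The gene fell by 3.31 ± 0.209 without estrogen (9.92-fold; adjusted p = 9.31e-09) and by 2.41 ± 0.209 with estrogen (5.33-fold; adjusted p = 3.91e-07; SE, n = 3 per group). Its second probe set, 1434458_at, changed by -2.69 ± 0.206 and -2.32 ± 0.206, both called. Within series 1 the change with estrogen was -2.33.

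Inha (1422728_at) was bright on every array. It stood at 12.74, 12.48 and 11.97 in oocyte-free complexes without estrogen, against 13.27, 13.48 and 13.40 in intact complexes, and fell by 0.99 ± 0.160 (1.98-fold; limma adjusted p = 0.000187). In the presence of estrogen, Inha stood at 13.31, 13.05 and 13.06 in oocyte-free and 13.60, 13.50 and 13.61 in intact complexes, a change of -0.43 ± 0.160 that was not called (limma adjusted p = 0.0604), although the groups did not overlap. Without oocyte-free replicate 3 (no estrogen), replicate 1 (no estrogen) or replicate 1 (with estrogen), that change was called (-0.43, -0.43 and -0.52; limma adjusted p = 0.0100, 0.0325 and 0.0487). It was also called within series 1, at -0.39 (adjusted p = 0.0317).

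Inhba (1422053_at), the beta A gene, differed from Inhbb in the size of its response. It stood at 10.29, 9.97 and 10.27 in oocyte-free complexes without estrogen, against 10.79, 10.98 and 10.40 in intact ones, and fell by 0.55 ± 0.183 (1.46-fold; limma adjusted p = 0.0301). With estrogen it stood at 11.95, 11.61 and 11.29 in oocyte-free and 12.80, 12.67 and 13.03 in intact complexes, and fell by 1.22 ± 0.183 (2.32-fold; adjusted p = 0.000119). Both pairs of groups did not overlap, but without estrogen the gap between the nearest arrays was small. The call without estrogen ended when series was a covariate (-0.19, adjusted p = 0.644), with the conflicting array moved to the group without estrogen (-0.10, adjusted p = 0.854), in a fit of these groups alone, after a second quantile normalization, and without oocyte-free replicate 2 or intact replicate 1 or 2 (-0.42 to -0.51; adjusted p = 0.0865 to 0.137). Within series 1, the change with estrogen was -1.05.

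**Figure D1:**
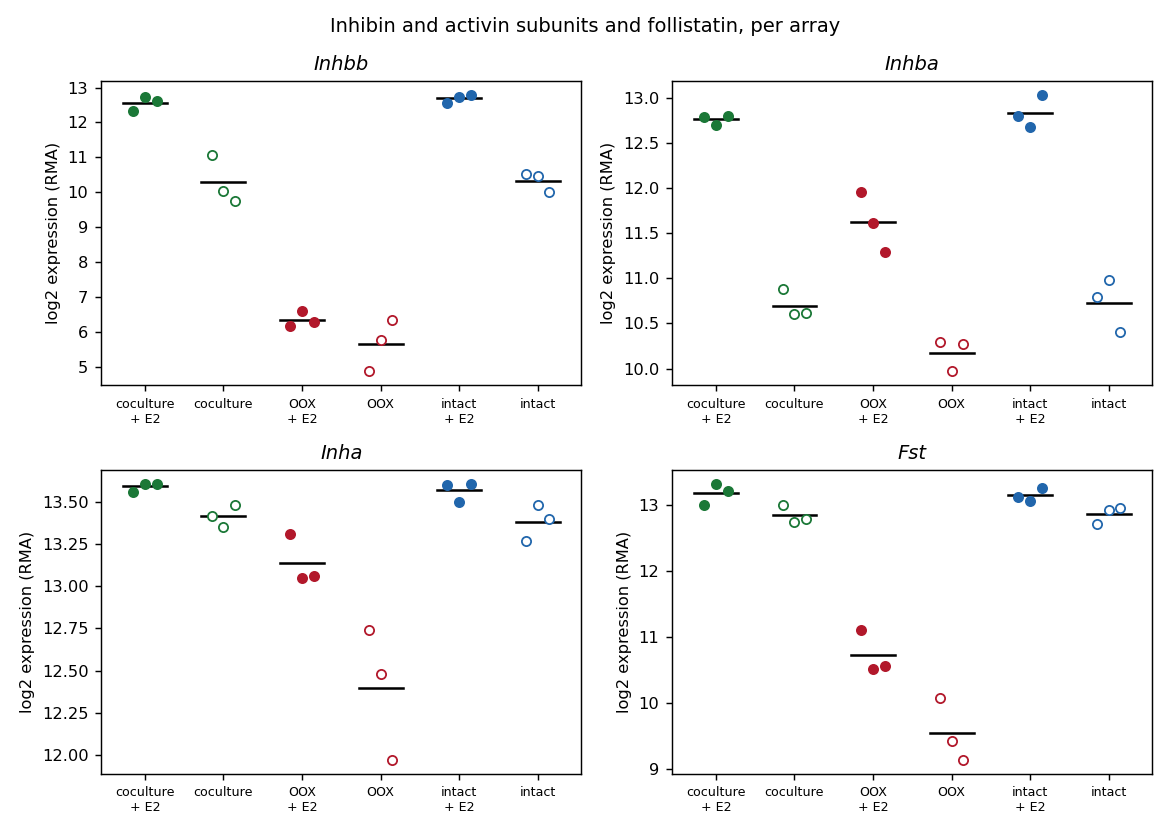
Log2 expression of Inhbb, Inhba, Inha and Fst (highest-mean probe set, y axis) in each of the 18 arrays by group (x axis; filled points with estrogen, open points without, black bar the mean of 3 arrays). Inhbb in oocyte-free complexes lies between 4.87 and 6.60, and on all other arrays at 9.75 or more.

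Fstl3 (1422803_at) was dim throughout. It stood at 5.11, 5.00 and 5.53 in oocyte-free complexes without estrogen, against 6.22, 5.95 and 6.11 in intact complexes, and fell by 0.88 ± 0.188 (1.84-fold; limma adjusted p = 0.00182). With series as a covariate the change was -0.65 (adjusted p = 0.0973). In the presence of estrogen, Fstl3 stood at 5.06, 5.03 and 4.85 in oocyte-free and 5.57, 5.35 and 5.14 in intact complexes, a change of -0.37 ± 0.188 that was not called (limma adjusted p = 0.166). The oocyte-free arrays lay at or below the array medians in both conditions.

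Tgfbr3 (1433795_at), the betaglycan gene, moved the other way. It stood at 11.28, 10.94 and 11.50 in oocyte-free complexes without estrogen, against 10.18, 10.60 and 10.47 in intact ones, and rose by 0.82 ± 0.244 (1.77-fold; limma adjusted p = 0.0158). With estrogen it stood at 12.35, 11.77 and 11.86 in oocyte-free complexes, the highest values of the 18 arrays, against 11.06, 10.54 and 10.89 in intact ones, and rose by 1.16 ± 0.244 (2.24-fold; adjusted p = 0.00208). The groups did not overlap in either condition. The call without estrogen ended without oocyte-free replicate 3 (0.69, adjusted p = 0.0601) and without intact replicate 1 (0.70, adjusted p = 0.0701).

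Among the activin receptor genes, Acvr2b (1419140_at) was the one that rose. It stood at 8.74, 8.77 and 7.85 in oocyte-free complexes without estrogen, against 7.95, 7.59 and 7.73 in intact ones, where oocyte-free replicate 3 lay below the highest intact array (0.70 ± 0.193; 1.62-fold; limma adjusted p = 0.0108). With estrogen it stood at 8.18, 8.13 and 8.18 in oocyte-free and 7.62, 7.51 and 7.43 in intact complexes, with no overlap (0.64 ± 0.193; 1.56-fold; adjusted p = 0.0215). A second probe set, 1439856_at, rose by 0.49 ± 0.137 without and 0.63 ± 0.137 with estrogen (limma adjusted p = 0.0116 and 0.00270). The first probe set lost its call without estrogen when oocyte-free replicate 1 or 2 was left out (0.55 and 0.54; limma adjusted p = 0.0544 and 0.0603) with series as a covariate (0.57, adjusted p = 0.0955), and when fitted on its own 6 arrays (adjusted p = 0.102). With estrogen it lost the call without oocyte-free replicate 1 or 3 or intact replicate 2 or 3, at 0.60 to 0.64 (adjusted p = 0.0514 to 0.0762), and with the conflicting array moved (adjusted p = 0.0576).

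The other activin receptor genes gave no call in any of the 11 contrasts. Acvr2a (1437382_at) ranged from 5.54 to 6.73 over the 18 arrays and Acvr1b (1433725_at) from 8.25 to 9.37. On oocyte removal, Acvr2a changed by 0.11 ± 0.237 without estrogen (95% interval -0.39 to 0.62) and by 0.43 ± 0.237 with it (-0.07 to 0.93), the groups not overlapping with estrogen. Acvr1b changed by 0.38 ± 0.221 and 0.21 ± 0.221, with intervals from -0.09 to 0.85 and from -0.26 to 0.68. These intervals are not adjusted for the number of tests. That of Acvr2a without estrogen ends below the Acvr2b change of 0.70, and the other 3 hold the Acvr2b change of the same condition.

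**Figure D2:**
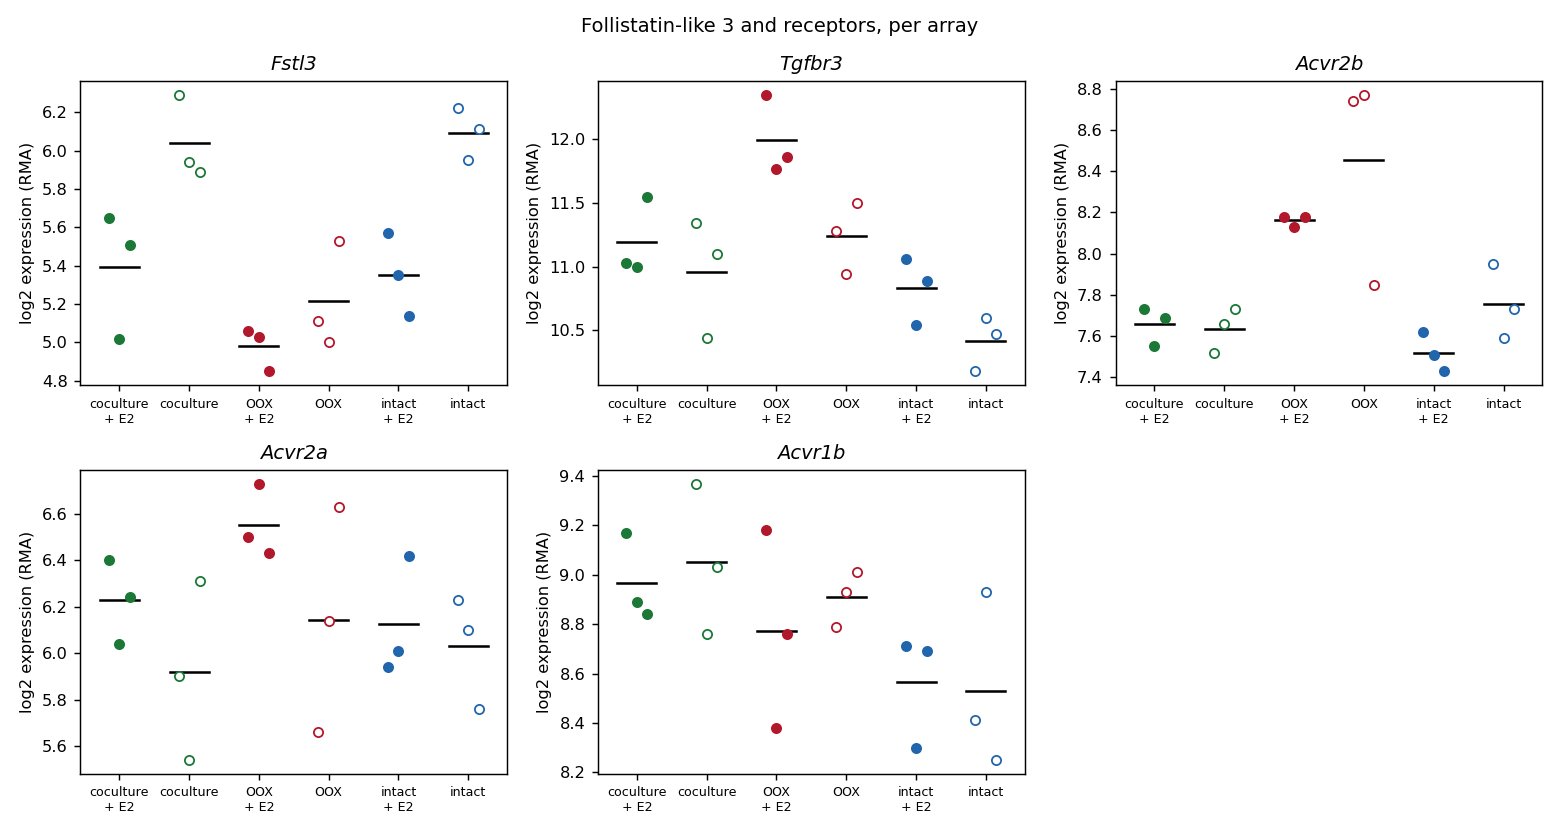
Log2 expression of Fstl3, Tgfbr3, Acvr2b, Acvr2a and Acvr1b (highest-mean probe set, y axis) in each of the 18 arrays by group (x axis; filled points with estrogen, open points without, black bar the mean of 3 arrays). The 3 oocyte-free arrays with estrogen are the highest for Tgfbr3, at 11.77 to 12.35.

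The next comparison asked whether oocytes placed beside oocyte-free shells bring the system back. At their brightest probe sets, Inhbb, Fst and Inhba rose in both conditions, and Inha and Fstl3 rose without estrogen. Acvr2b fell without estrogen, Tgfbr3 fell with it, and the second probe set of Acvr2b fell in both conditions. Without estrogen, 6 of the 12 tested probe sets rose, 2 fell and 4 were not called, against a background of 28.6% called (16.0% higher and 12.5% lower). Among the 6 was Fstl3, with the filter limit given above. With estrogen, 5 rose, 2 fell and 5 were not called, against 19.7% (10.8% higher and 8.93% lower). The groups did not overlap for 6 and 7 of the 9 genes, against 35.8% and 34.2% of all tested probe sets. These comparisons use the same oocyte-free arrays as those of oocyte removal, so the opposite directions are not independent of each other. Marker genes moved here as well, against the same backgrounds. Of 10 tested cumulus markers, 5 rose and 2 fell without estrogen, and 5 rose and 1 fell with it. Of 5 theca and stroma genes, 3 rose and 1 fell without estrogen, and 3 fell with it. Of 5 mural markers, 2 rose and 1 fell without estrogen, and 1 rose and 1 fell with it. Of 4 oocyte markers, only Bcl2l10 was called, at 3.71 and 4.08. The part of these shifts in the results was not tested.

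In cocultures, Inhbb stood at 11.06, 10.04 and 9.75 without estrogen, against 4.87, 5.76 and 6.35 in oocyte-free complexes (4.62 ± 0.331; 24.6-fold; limma adjusted p = 4.37e-08). With estrogen it stood at 12.33, 12.74 and 12.61 in cocultures, against 6.16, 6.60 and 6.29 in oocyte-free complexes (6.21 ± 0.331; 74.0-fold; adjusted p = 2.48e-09). Fst reached 12.99, 12.74 and 12.79 in cocultures without estrogen and 13.00, 13.32 and 13.20 with it, and rose by 3.29 ± 0.209 and 2.45 ± 0.209 over the oocyte-free complexes. At the brightest probe set of both genes every coculture array lay above every oocyte-free array. The second Inhbb probe set, 1426859_at, overlapped without estrogen. It stood there at 8.02, 7.29 and 7.27 in cocultures against 7.04, 6.95 and 7.29 in oocyte-free complexes, a change that was not called. Within array series, the coculture difference of Inhbb was 3.69 without estrogen (1 array each, series 2) and 6.18 with it (3 against 2 arrays, series 1), and that of Fst was 3.60 and 2.36.

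Inha stood at 13.42, 13.35 and 13.48 in cocultures without estrogen and rose by 1.02 ± 0.160 (2.03-fold; limma adjusted p = 0.000172). With estrogen it stood at 13.56, 13.61 and 13.61, and the difference of 0.45 ± 0.160 was not called (limma adjusted p = 0.0577; 0.0091 to 0.171 over its alternatives). Inhba stood at 12.78, 12.70 and 12.80 in cocultures with estrogen and rose by 1.14 ± 0.183 (2.21-fold; adjusted p = 0.000277). Without estrogen it stood at 10.88, 10.60 and 10.61 in cocultures against 10.29, 9.97 and 10.27, a rise of 0.52 ± 0.183 (adjusted p = 0.0432). That last call ended under 16 of its 27 alternatives, among them series as a covariate (0.24, adjusted p = 0.466), and the loss of any coculture array or of oocyte-free replicate 1 or 2, at 0.42 to 0.58.

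Fstl3 stood at 6.29, 5.94 and 5.89 in cocultures without estrogen and rose by 0.83 ± 0.188 (limma adjusted p = 0.00356; 0.60 and adjusted p = 0.0758 with series as a covariate). With estrogen the values of 5.65, 5.02 and 5.51 overlapped those of oocyte-free complexes (0.41 ± 0.188; adjusted p = 0.142). That difference was called only without coculture replicate 2 (0.60, adjusted p = 0.0407). Acvr2b stood at 7.52, 7.66 and 7.73 in cocultures without estrogen and fell by 0.82 ± 0.193 (adjusted p = 0.00464; 0.0672 in a fit of these groups alone), while with estrogen, at 7.73, 7.55 and 7.69, its change was -0.51 ± 0.193 (adjusted p = 0.0784). Its second probe set, 1439856_at, fell by 0.40 ± 0.137 without and 0.42 ± 0.137 with estrogen (adjusted p = 0.0378 and 0.0384). For the first, the change with estrogen was called without oocyte-free replicate 3 of the group without estrogen (-0.51, adjusted p = 0.00501). Tgfbr3 stood at 11.03, 11.00 and 11.55 in cocultures with estrogen and fell by 0.80 ± 0.244 (adjusted p = 0.0291), a call that ended without coculture replicate 1 or 2 or oocyte-free replicate 1 (-0.72, -0.70 and -0.62; adjusted p = 0.0968 to 0.119) and with the conflicting array moved (-0.62, adjusted p = 0.243). Without estrogen its coculture values of 11.34, 10.44 and 11.10 overlapped the oocyte-free ones (-0.28 ± 0.244).

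**Figure D3:**
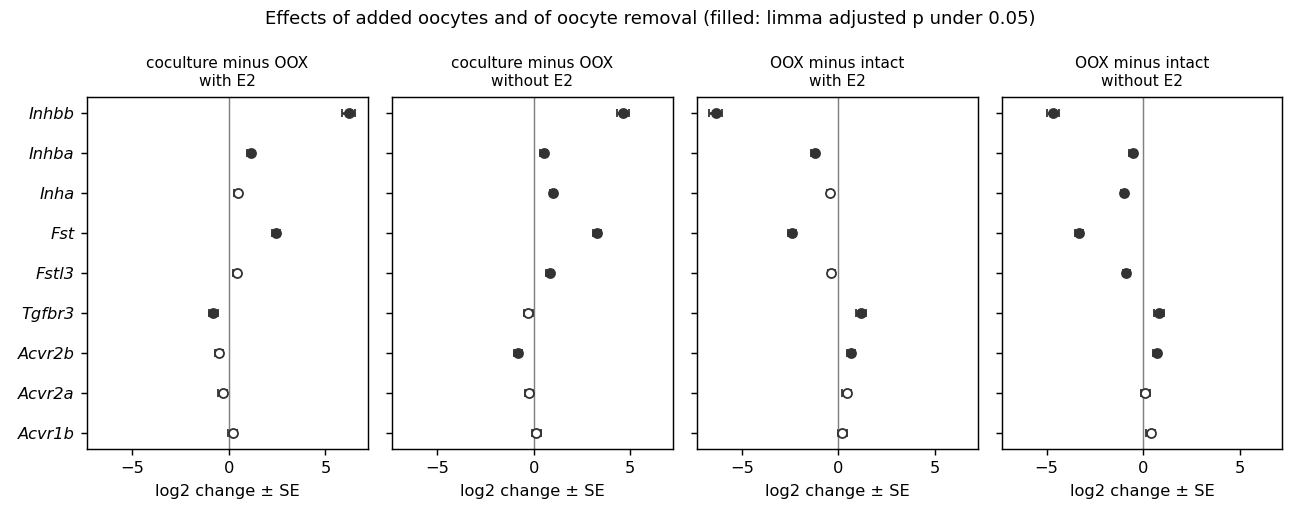
Log2 change of each of the 9 genes (highest-mean probe set) with its SE from limma (x axis) for coculture minus oocyte-free and for oocyte-free minus intact complexes, with and without estrogen (3 arrays per group; filled points called). Inhbb spans -6.34 to 6.21 and the receptor genes stay within 1.16 of 0.

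Cocultures and intact complexes were then set against each other directly. None of the 12 tested probe sets was called, without or with estrogen, where limma called 0.00% of all tested probe sets in each comparison, with 1383 and 609 of them, and 2 and 0 of the 12, at an unadjusted p under 0.05. Inhbb differed by -0.05 (95% interval -0.75 to 0.65) without and -0.13 (-0.83 to 0.57) with estrogen, Fst by -0.02 (-0.46 to 0.42) and 0.03 (-0.41 to 0.48), and Inha by 0.03 (-0.31 to 0.37) and 0.02 (-0.32 to 0.36). Inhba differed by -0.03 (-0.41 to 0.36) and -0.07 (-0.46 to 0.31). The values of these 4 genes in cocultures overlapped those in intact complexes in both conditions. Tgfbr3 was higher in cocultures by 0.54 (0.03 to 1.06) without estrogen and by 0.36 (-0.15 to 0.88) with it, and Acvr1b by 0.52 (0.05 to 0.99) and 0.40 (-0.07 to 0.87), and neither passed the adjusted test. The groups did not overlap for 1 of the 9 genes with estrogen, Acvr1b, and for none without, against 9.36% and 10.7% of all tested probe sets. A failed test does not show that the groups are alike.

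Where oocytes were present, estrogen changed the activin beta subunit genes more than any other member. In intact complexes, Inhba and both probe sets of Inhbb rose and Fstl3 fell, 4 of the 12 tested probe sets, against a background of 3.43% called (2.00% higher and 1.44% lower). Of these 4, the Fstl3 difference was partly built into the filter, as given above. In cocultures, Inhba and both probe sets of Inhbb rose, 3 of the 12, against 3.26% (1.68% higher and 1.57% lower). In oocyte-free complexes Inhba, Fst and Inha rose, again 3 of the 12, against 6.75% (4.36% higher and 2.39% lower). The groups with and without estrogen did not overlap for 5, 5 and 4 of the 9 genes in intact complexes, cocultures and oocyte-free complexes, against 29.3%, 21.7% and 21.1% of all tested probe sets. The mean of the 8 theca and stroma genes was 5.67 to 5.80 with against 6.50 to 6.59 without estrogen in intact complexes, 5.83 to 5.93 against 6.50 to 6.85 in cocultures, and 6.54 to 6.70 against 6.46 to 6.73 in oocyte-free complexes. That of the 10 cumulus markers was 9.47 to 9.58 with against 8.96 to 9.09 without estrogen in intact complexes. It was 9.47 to 9.70 against 9.01 to 9.26 in cocultures, and 8.96 to 9.31 against 8.21 to 8.46 in oocyte-free complexes. Single genes moved these means: in intact complexes Acta2, Gli1 and Ptch1 fell, of 5 tested theca and stroma genes. Of the 10 cumulus markers, Npr2 and Slc38a3 rose there and 8 were not called. In cocultures 2 of these 10 rose, and 3 of the 5 theca and stroma genes fell. In oocyte-free complexes 4 of the 10 cumulus markers rose and 1 fell, and 2 of the 5 theca and stroma genes rose and 1 fell. The part of these marker shifts in the estrogen results was not tested.

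Inhba rose with estrogen in every culture type. It stood at 12.80, 12.67 and 13.03 in intact complexes with estrogen, against 10.79, 10.98 and 10.40 without (2.11 ± 0.183; 4.32-fold; limma adjusted p = 3.13e-06). In cocultures it stood at 12.78, 12.70 and 12.80, against 10.88, 10.60 and 10.61 (2.06 ± 0.183; 4.18-fold; adjusted p = 4.69e-06). In oocyte-free complexes it stood at 11.95, 11.61 and 11.29, against 10.29, 9.97 and 10.27 (1.44 ± 0.183; 2.71-fold; adjusted p = 0.000170). In all 3 culture types every array with estrogen lay above every array without it. The array whose labels conflict had the highest value of its titled group, 11.95, and with that array moved to the group without estrogen the oocyte-free change was 0.83 (adjusted p = 0.766). Within series 3 the oocyte-free change was 1.16 (1 against 2 arrays).

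Inhbb rose with estrogen where oocytes were present. It stood at 12.57, 12.72 and 12.79 in intact complexes with estrogen, against 10.52, 10.47 and 10.01 without (2.36 ± 0.331; 5.13-fold; limma adjusted p = 0.000391), and in cocultures at 12.33, 12.74 and 12.61, against 11.06, 10.04 and 9.75 (2.28 ± 0.331; 4.85-fold; adjusted p = 0.000590). In oocyte-free complexes the values of 6.16, 6.60 and 6.29 with estrogen overlapped those of 4.87, 5.76 and 6.35 without, and the change of 0.69 ± 0.331 was not called (adjusted p = 0.217). The order of the 6 group means was the same for both beta subunits at the top, with intact complexes and cocultures with estrogen first and overlapping. For Inhbb, cocultures without estrogen, at 10.28, and intact complexes without estrogen, at 10.33, followed and overlapped, and the oocyte-free groups came last, at 6.35 with and 5.66 without estrogen. For Inhba the oocyte-free group with estrogen came next, at 11.62, above cocultures and intact complexes without estrogen, at 10.70 and 10.72.

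Both beta subunit genes and Fstl3 were called for estrogen in intact complexes, Fstl3 with the filter limit given above. Their promoter windows are shown because those genes moved together or in opposite directions with estrogen. They are RefSeq sequences of GRCm38.p6, 250 bases before to 50 bases after an annotated start, written 5′ to 3′, and capitals mark GGTCA, the core of the estrogen response element, on either strand (TGACC on the other). Inhbb is on the minus strand at chr1:119422199-119422498, Inhba on the plus strand at chr13:16011601-16011900 and Fstl3 on the plus strand at chr10:79777024-79777323. The start used for Inhba lies 7595 bases inside the annotated gene.
Inhbb: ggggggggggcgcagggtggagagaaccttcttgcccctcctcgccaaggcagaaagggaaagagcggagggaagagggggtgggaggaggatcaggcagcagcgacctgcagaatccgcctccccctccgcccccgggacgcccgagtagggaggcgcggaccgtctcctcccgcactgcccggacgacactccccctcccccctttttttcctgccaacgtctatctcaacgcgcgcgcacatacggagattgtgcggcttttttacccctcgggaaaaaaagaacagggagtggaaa
Inhba: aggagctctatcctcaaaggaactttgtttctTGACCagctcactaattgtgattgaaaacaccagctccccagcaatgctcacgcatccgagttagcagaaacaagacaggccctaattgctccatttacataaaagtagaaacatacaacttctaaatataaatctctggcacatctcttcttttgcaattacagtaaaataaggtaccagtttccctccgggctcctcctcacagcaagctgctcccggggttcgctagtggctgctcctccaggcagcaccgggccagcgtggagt
Fstl3: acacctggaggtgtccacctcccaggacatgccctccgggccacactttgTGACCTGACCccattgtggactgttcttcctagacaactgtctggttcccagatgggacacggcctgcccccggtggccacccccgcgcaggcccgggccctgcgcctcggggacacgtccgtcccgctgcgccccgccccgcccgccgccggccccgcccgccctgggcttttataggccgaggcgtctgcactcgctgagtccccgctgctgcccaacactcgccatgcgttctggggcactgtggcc
This core was found 0 times in the Inhbb, 1 time in the Inhba and 2 times in the Fstl3 window, and 40.5% of 32851 promoter windows of this length hold it. The full palindromic estrogen response element, which contains the core on both sides, was found in none of these windows and in 0.1% of all windows. The cAMP response element TGACGTCA and its core TGACG, which the element contains, were in none of the 3 windows, and in 1.8% and 20.8% of all windows. Such letters in a window are a description and show no binding. Promoter windows of 7 of the 9 genes were matched by symbol.

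Fst responded to estrogen in oocyte-free complexes, at 11.11, 10.51 and 10.56 with estrogen against 10.08, 9.43 and 9.14 without (1.18 ± 0.209; 2.26-fold; limma adjusted p = 0.00286). The call ended in a fit of these groups alone (adjusted p = 0.125) and with the conflicting array in the other group (0.59, adjusted p = 0.801), and the second probe set gave 0.50 ± 0.206 (adjusted p = 0.155). In intact complexes and cocultures Fst changed by 0.28 ± 0.209 and 0.33 ± 0.209, neither called, although the groups did not overlap. Inha rose by 0.74 ± 0.160 in oocyte-free complexes (13.31, 13.05 and 13.06 against 12.74, 12.48 and 11.97; adjusted p = 0.0106), a call that ended in a fit of these groups alone (adjusted p = 0.219), without the conflicting array (0.66, adjusted p = 0.0670) and with it moved (0.43, adjusted p = 0.788). Inha changed by 0.19 ± 0.160 in intact complexes and 0.18 ± 0.160 in cocultures, neither called.

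Fstl3 fell in intact complexes, to 5.57, 5.35 and 5.14 with estrogen against 6.22, 5.95 and 6.11 without (-0.74 ± 0.188; 1.67-fold; limma adjusted p = 0.0381). In cocultures it stood at 5.65, 5.02 and 5.51 with estrogen against 6.29, 5.94 and 5.89 without, a change of -0.65 ± 0.188 (adjusted p = 0.0836). The call in intact complexes ended without any of the 3 intact arrays without estrogen, without intact replicate 2 or 3 with estrogen, and without coculture replicate 3 with estrogen (-0.63 to -0.81; adjusted p = 0.0503 to 0.206), and with the conflicting array moved (adjusted p = 0.0577). The difference in cocultures was called without oocyte-free replicate 3 (-0.65, adjusted p = 0.0440). Tgfbr3 changed by 0.75 ± 0.244 in oocyte-free complexes (12.35, 11.77 and 11.86 against 11.28, 10.94 and 11.50; adjusted p = 0.0758), with no overlap, and was called without coculture replicate 2 (0.75, adjusted p = 0.0432). Acvr2b changed by -0.24, 0.02 and -0.29 in intact complexes, cocultures and oocyte-free complexes, and the last change was called without oocyte-free replicate 3 (-0.59, adjusted p = 0.0130).

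**Figure D4:**
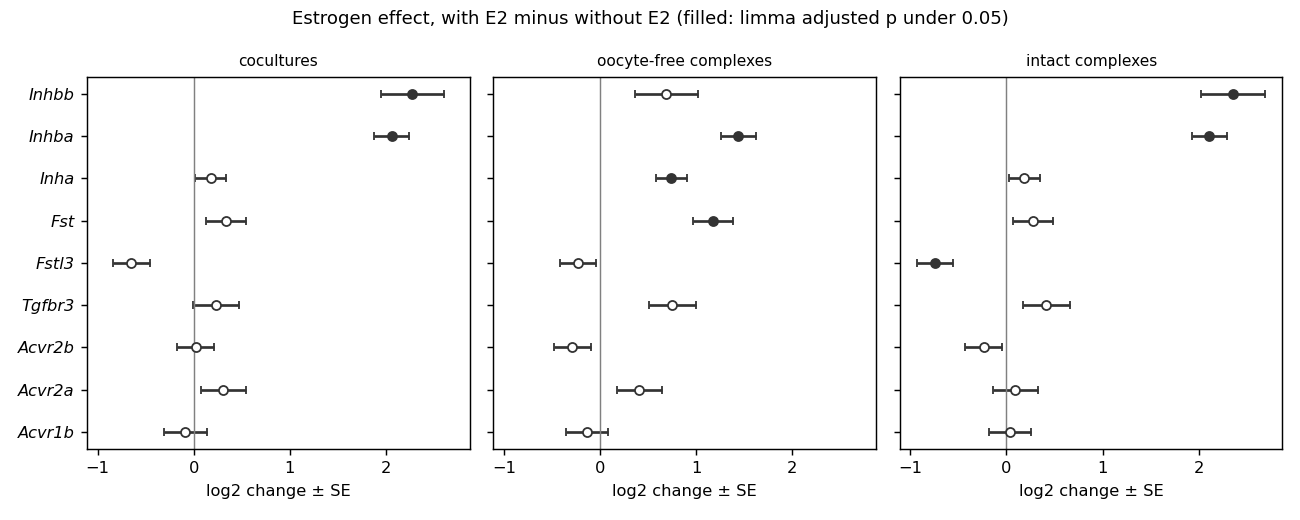
Log2 change with estrogen minus without, with its SE from limma (x axis), of each of the 9 genes (highest-mean probe set) in cocultures, oocyte-free complexes and intact complexes (3 arrays per group; filled points called). Inhba lies at 1.44 or above in all 3 panels, while Inhbb lies at 0.69 in oocyte-free complexes and above 2 in the others.

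Whether the estrogen effect itself differed with the oocyte was tested as an interaction. The estrogen effect on Inhbb was smaller in oocyte-free than in intact complexes by 1.67 on the log2 scale (-1.67 ± 0.468; limma adjusted p = 0.0894) at the first probe set and by 2.17 (-2.17 ± 0.328; adjusted p = 0.00164) at the second, 1426859_at. Against oocyte-free complexes, the estrogen effect in cocultures was larger by 1.59 ± 0.468 (adjusted p = 0.122) and 2.51 ± 0.328 (adjusted p = 0.000592). The second probe set was thus called in both interactions and the first in neither, against backgrounds of 2.02% called (1.18% higher and 0.840% lower) and 1.78% called (0.615% higher and 1.17% lower). The first was called in both without oocyte-free replicate 1 (-2.06 and 1.98; adjusted p = 0.0153 and 0.0233) and without coculture replicate 1 (-1.67 and 1.98; adjusted p = 0.0400 and 0.0288). The interactions of Fst, 0.90 ± 0.296 and -0.84 ± 0.296, were called only without oocyte-free replicate 1 (1.16 and -1.11; adjusted p = 0.0237 and 0.0349) or with array weights. For Inhba they were -0.67 ± 0.259 and 0.62 ± 0.259 and for Inha 0.56 ± 0.227 and -0.57 ± 0.227, none called under any alternative.

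The 2 tested probe sets of Inhbb differed in size of response. Probe set 1426859_at stood at 9.47, 10.13 and 9.87 in cocultures with estrogen, against 8.02, 7.29 and 7.27 without, and at 9.42, 9.51 and 10.22 in intact complexes with estrogen, against 7.67, 7.91 and 7.69 without. In oocyte-free complexes it stood at 6.85, 6.90 and 6.90 with estrogen, against 7.04, 6.95 and 7.29 without, where the groups did not overlap and the change of -0.21 ± 0.232 was not called and ran opposite to that of the first probe set. On oocyte removal it fell by 0.66 ± 0.232 without estrogen (limma adjusted p = 0.0369) and changed by -2.83 ± 0.232 with it (adjusted p = 2.15e-07), where the first fell by 4.67 and 6.34. In cocultures over oocyte-free complexes it changed by 0.43 ± 0.232 without estrogen (adjusted p = 0.181) and rose by 2.94 ± 0.232 with it (adjusted p = 1.85e-07). Of the 5 probe sets that were not tested, 1 each belongs to Inhba, Tgfbr3, Acvr2b, Acvr2a and Acvr1b.

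**Figure D5:**
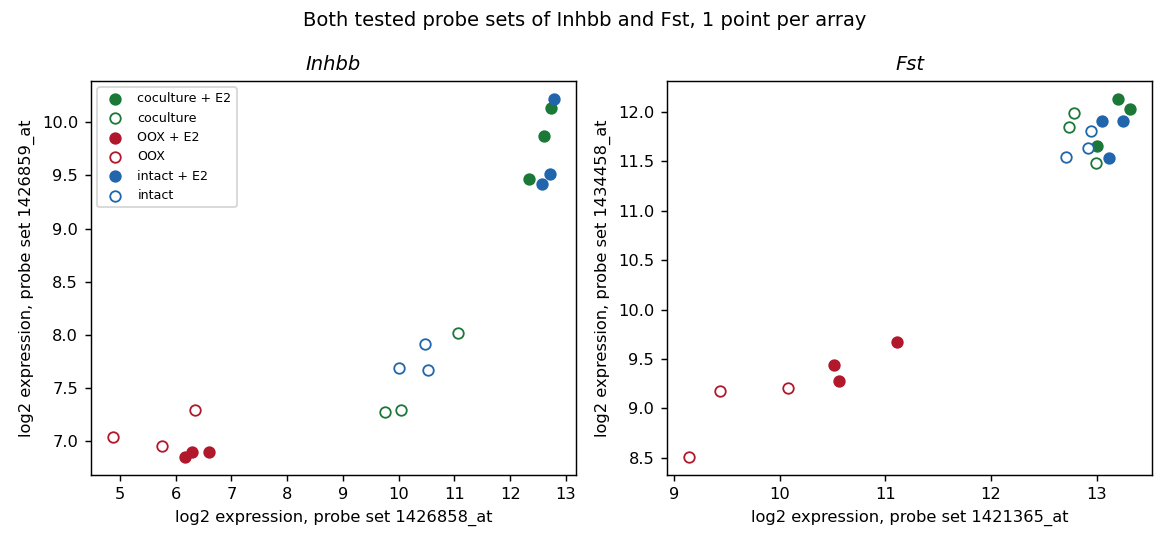
Log2 expression of both tested probe sets of Inhbb (left) and of Fst (right), 1 point per array, coloured by culture type (filled points with estrogen, open points without). For Inhbb the second probe set (y axis) varies from 6.85 to 7.29 over the 6 oocyte-free arrays, while the first (x axis) varies from 4.87 to 6.60.

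The genes nearest in profile over the 18 arrays were then listed. Likeness was measured as the root mean square log2 difference after each probe set was centred on its own mean, over 12260 genes. The nearest to Inhbb, whose own SD was 2.86, were Fam81a (0.852), Otor (1.03) and Ccnd2 (1.04). Ccnd2 did not share the estrogen part of the profile, with changes of 0.01 in intact complexes and 0.28 in cocultures, neither called, where Inhbb rose by 2.36 and 2.28. The nearest to Inhba (SD 1.08) were Chst11 (0.259), Ddah1 (0.312) and Rassf4 (0.336). The nearest to Fst (SD 1.46) were Socs2 (0.246), Slco3a1 (0.254) and Lrrc10b (0.281), and the nearest to Inha (SD 0.448) were Ociad1 (0.122), Xbp1 (0.126) and Eprs (0.132). None of these 12 nearest genes belongs to the system.

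The other genes of the pathway were counted from fixed lists, with the highest-mean probe set of each gene. Of 12 tested other ligands of the TGF-beta family, 2 rose and 1 fell on oocyte removal without estrogen, and 3 rose and none fell with estrogen. Over all tested probe sets, 15.4% rose and 17.6% fell without estrogen (33.0% called), and 12.1% rose and 13.2% fell with it (25.3% called), so 3 of 12 ligands called is no more than the background in either condition. Bmp2, a bone morphogenetic protein gene, rose by 3.24 and 4.35 (limma adjusted p = 7.62e-09 and 5.26e-10), and Bmp6 changed by -2.33 without estrogen (adjusted p = 1.43e-05). Of 11 tested other receptors and co-receptors, 3 rose and 2 fell without estrogen, and 2 rose and 2 fell with it. Tdgf1, which encodes the co-receptor Cripto, fell by 2.77 and 1.96 (adjusted p = 4.81e-07 and 2.70e-05), while Tgfbr1, the type I receptor gene for TGF-beta, rose by 1.62 and 1.06 (adjusted p = 4.64e-05 and 0.00244).

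These counts are to be read against the same backgrounds of 33.0% called without estrogen and 25.3% with it. Of 8 tested extracellular regulators, 1 rose and 3 fell without estrogen, and 1 rose and 2 fell with it. Grem1, which encodes the bone morphogenetic protein antagonist gremlin, fell by 1.84 and 2.72 (limma adjusted p = 3.75e-05 and 7.99e-07). Of 4 proprotein convertases, enzymes of the family that cleaves TGF-beta family precursors, Pcsk5 fell by 1.66 and 1.58 (adjusted p = 1.27e-07 and 2.82e-07), and with estrogen 2 of the others rose. Of 20 SMADs and their partners, 7 rose and 2 fell without estrogen, and 6 rose and 1 fell with it. Smad3, a transducer of activin signals, rose by 1.65 and 1.20 (adjusted p = 7.91e-06 and 0.000246), and Pmepa1, a feedback inhibitor that SMAD2 and SMAD3 induce, fell by 3.49 and 1.37 (adjusted p = 2.19e-09 and 6.58e-05). The list of SMAD2/3 target genes shares Pmepa1, Smad7, Skil and Tgif1 with the SMADs and partners, and Bambi with the extracellular regulators. Its counts are therefore not separate from theirs. Of its 8 tested genes, 2 rose and 3 fell without estrogen, and 1 rose and 3 fell with it. Ccnd2, the cyclin D2 gene, changed by -5.14 and -4.50. Ccn2, of the same list, rose by 1.47 and 2.89 (limma adjusted p = 0.000678 and 1.09e-06).

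Estrogen in intact complexes moved fewer of these genes. Of the ligands none was called, of the receptors 1 fell, of the extracellular regulators 1 rose and 1 fell, of the convertases none was called, of the SMADs and partners 2 fell, and of the SMAD2/3 targets 2 of 8 fell, Pmepa1 and Ccn2, against 2.00% of all tested probe sets called higher and 1.44% lower. Pmepa1 changed by -1.44 (limma adjusted p = 0.000294) in intact complexes and by -1.36 in cocultures (adjusted p = 0.000526), where Inhba and Inhbb rose. In oocyte-free complexes its change with estrogen had the opposite sign, at 0.68 (adjusted p = 0.0470, a call lost under most alternatives, at 0.43 with the conflicting array moved), and the change there minus that in intact complexes was 2.12 (adjusted p = 0.000485). Fstl1, a secreted glycoprotein gene of the follistatin-like group, changed by -1.70 in intact complexes (adjusted p = 0.000352).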

How the data were processed

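The deposited table holds log2 expression values per probe set, which the authors made by RMA (the submitters' processing notes name Affymetrix Expression Console 1.1). The RNA went through 2 rounds of amplification from a small input, per the labels' protocols. A genome build for the annotation is not named in the labels or files used here. Probe sets were named from GEO's platform annotation, with symbols updated through Entrez IDs, and 1 probe set that names a member together with another gene was left out. The 64 control probe sets were removed, and the rest were kept where they exceeded the median of their array on at least 3 arrays. One limma (3.58.1, R 4.3.3) model with 6 group means was fitted to all 25355 probe sets, with empirical Bayes and Benjamini-Hochberg adjustment, and 11 contrasts were read from it. The procedure was tested on simulated data. Each gene is given by its brightest probe set (mean of all 18 arrays) and its other probe sets where they disagree. Pathway genes were named for the largest changes of their list. The members, lists and tests were chosen with earlier results of these data known. Replicate numbers follow the order of the titles and were not taken to pair samples, since correlations of paired deviations ran both ways across comparisons. These correlations lay between -0.50 and 0.50. For cocultures against intact complexes with estrogen 3 pairs were over 0.1, and for estrogen in intact complexes 0 were. Alternatives covered the filter, the samples in the fit, normalization, array weights, array series, the conflicting label, a replicate block and each array left out. The number of arrays limits the precision.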

Additional observations from a re-analysis of the deposited data

Results flagged for a closer look

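The effect of estrogen on the second Inhbb probe set, 1426859_at, differed with the oocyte by a test of the difference itself. It was smaller in oocyte-free than in intact complexes, at -2.17 on the log2 scale (limma adjusted p = 0.00164), and larger in cocultures than in oocyte-free complexes, at 2.5067 (adjusted p = 0.000592). Both differences rest on the same 6 oocyte-free arrays, 1 of which is the array whose labels conflict. In those 6 arrays this probe set varied only from 6.85 to 7.29, and on oocyte removal without estrogen it changed by -0.66 where the first probe set changed by -4.67. Whether it can register an estrogen effect at that level was not tested. The first probe set of the gene gave -1.67 and 1.59 and passed neither test. With the conflicting array moved, the 2 interactions gave 103 and 77 calls over all tested probe sets, against 513 and 452. How the second probe set changed under each alternative was not followed.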

How the results depend on the processing

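Among pairs of a member gene and a contrast, 30 were called. Of these, 17 kept their call and direction under every alternative run for them, 13 lost the call under at least 1, and 0 reversed. Of 69 uncalled pairs, 11 were called under at least 1 alternative. Called pairs of a pathway gene and a contrast, up to 4 a list and contrast, numbered 106. Of these, 62 kept their call and direction under every alternative and 0 reversed. The count of called member probe sets on oocyte removal without estrogen was 5 with array series as a covariate, against 10 as reported. On oocyte removal with estrogen it was 5 of 9 with 1 probe set per gene, against 8 of 12. In the main fit 2 of these 9 rose and 3 fell as well. For added oocytes without estrogen it was 5 in a fit of those groups alone and 5 with series as a covariate, against 8. For estrogen in oocyte-free complexes it was 1 in a fit of those groups alone, 5 with array weights and 0 with the conflicting array moved, against 3. In both interactions it was 0 with 1 probe set per gene, 3 with array weights and 1 to 3 with single arrays left out, against 1. That 1 is the second probe set of Inhbb, which the setting of 1 probe set per gene leaves out. The fit of those groups alone has fewer arrays, and 1 probe set per gene leaves fewer tests. The cause of the other shifts was not tested. With the replicate block, the counts were 10 and 8 for oocyte removal without and with estrogen, 7 and 6 for added oocytes, 0 and 0 for cocultures against intact complexes, 4, 3 and 3 for estrogen in intact, oocyte-free and cocultured complexes, and 1 and 1 for the interactions. Over all tested probe sets, oocyte removal without estrogen gave 4730 calls with series as a covariate, against 8372. Estrogen in intact complexes gave 1464 with that covariate, 1687 within series 1, 2753 with array weights and 1308 in a fit of those groups alone, against 870. Estrogen in oocyte-free complexes gave 689, 4173 and 199 under the covariate, the weights and the groups alone, and 1 with the conflicting array moved, against 1711. Array brightness limits Fstl3, Acvr2a and the oocyte-free values of Inhbb, which lie near the array medians. The file gives no detection calls.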
